A study of Mus musculus with 36 samples.

Results

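Small nucleolar RNA (snoRNA) genes were described across sperm, round spermatids, morulae and 3 tissues of offspring. Of the 141 genes with a symbol starting with Snord or Snora in the count tables, 47 had a sum of 10 or more reads over the 6 libraries of at least 1 of the 6 tables, and these are the members. They were chosen by their measured read counts, so the level of a member is given as a description and carries no test. Of the other genes, 74 had no read in any library and 20 had a highest sum of 1 to 9. Just inside the limit was Snord82, with 11 reads in round spermatids, and just outside were Snord111 and Snord23, with 9 reads each in the same table.

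SnoRNAs are short nuclear RNAs that guide the chemical modification of ribosomal RNA. C/D box RNAs (symbol Snord) mostly direct ribose methylation through fibrillarin, and H/ACA box RNAs (symbol Snora) direct pseudouridylation through dyskerin, while a few serve the cutting of precursor ribosomal RNA instead. In mammals most are released from introns of a host gene after splicing, and only a few have a promoter of their own.

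By the labels the mice were wildtype C57BL/6, and the study's methods give the substrain as C57BL/6N. Male mice received a high fat diet (HFD, 60% of kcal from fat) or a low fat diet (LFD, 10%) for 2 weeks, from 6 to 8 weeks of age. Cauda spermatozoa purified by swim-up, round spermatids isolated from testis on a density gradient, and morulae obtained by IVF with the sperm of such males and cultured for 72 h were sequenced as total RNA with a Nextera kit in 75-base reads. Liver, epididymal white adipose tissue (eWAT) and gastrocnemius came from adult male offspring of HFD-fed fathers, grouped as glucose tolerant (HFDt) or intolerant (HFDi). They were sequenced as polyA RNA with a 3′-end kit in 50-base reads. The labels give their treatment as High Fat Diet, but by the study's methods only the fathers ate it and the offspring ate chow throughout life. Each table holds 6 libraries. In sperm and morula the column names give the diet, with 3 libraries of each, and diet was compared only there. The other 4 tables name no diet or tolerance group in their columns, so those 24 libraries were used by tissue alone and no diet or tolerance difference was drawn from them. The labels do not say whether the sperm or morula libraries of a diet came from separate mice or pools, and p-values measure the spread between these libraries.

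The library totals were 2560219 to 4062321 reads in sperm, 20138842 to 31056066 in round spermatids, 11471251 to 12153141 in morula, 2036237 to 2552454 in liver, 1338149 to 4055537 in eWAT and 369772 to 2749920 in gastrocnemius. All defining markers of the labelled tissue were detected in their own table. Sperm LFD 4 stood apart, with 24985 CPM (reads on a gene scaled to the library total, per 1000000 reads) summed over 8 epididymal epithelium markers against 1629 to 8534 in the other sperm libraries, and with 43.5% of its reads on mitochondrial genes against 63.4% to 84.3%. An eWAT library of 3512177 reads also stood apart, with 80.9 CPM summed over 9 spermatid and sperm markers against a median of 3.38 over the 6 eWAT libraries. Values that they move are given with and without them.

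The members comprise 34 C/D box genes of 64 to 238 bases (median 82) and 13 H/ACA box genes of 128 to 184 bases (median 132), on 17 chromosomes. Of the 47, 42 lie inside another gene on the same strand. Among these, 11 lie in ribosomal protein genes named Rpl or Rps with a number, and Snora62 lies in Rpsa. The 5 that do not are Snord13, Snord118, Snord104, Snora17 and Snora57. The 6 sequences below belong to members among the 5 with the highest mean level of a table, from the GENCODE transcripts of GRCm38. Capitals mark the C box (TGATGA) and the D box (CTGA) in the Snord genes and the final ACA in the Snora genes.
Snord118: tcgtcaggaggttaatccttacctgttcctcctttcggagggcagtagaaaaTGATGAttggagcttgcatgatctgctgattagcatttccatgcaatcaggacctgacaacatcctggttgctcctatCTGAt
Snord89: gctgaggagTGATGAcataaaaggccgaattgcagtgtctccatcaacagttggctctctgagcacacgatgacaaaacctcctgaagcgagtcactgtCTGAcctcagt
Snord104: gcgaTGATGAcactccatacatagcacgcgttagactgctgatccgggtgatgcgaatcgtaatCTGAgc
Snord17: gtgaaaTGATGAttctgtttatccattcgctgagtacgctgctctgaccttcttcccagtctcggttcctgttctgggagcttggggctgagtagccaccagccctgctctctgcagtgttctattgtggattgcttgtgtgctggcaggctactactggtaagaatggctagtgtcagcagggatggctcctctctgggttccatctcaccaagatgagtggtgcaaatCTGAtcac
Snora23: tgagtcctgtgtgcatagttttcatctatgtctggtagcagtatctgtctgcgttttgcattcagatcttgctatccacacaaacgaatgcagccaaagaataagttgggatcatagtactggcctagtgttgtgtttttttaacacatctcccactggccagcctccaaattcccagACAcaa
Snora31: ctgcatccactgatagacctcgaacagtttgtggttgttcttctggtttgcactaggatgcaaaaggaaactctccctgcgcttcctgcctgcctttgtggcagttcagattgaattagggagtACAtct

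The boxes followed the names. The C box letters TGATGA, read on the gene's own strand, were present in 24 of 34 C/D box members and in 0 of 13 H/ACA box members. CTGA fell within the last 20 bases of 33 of 34 C/D box members and 2 of 13 H/ACA box members, and ACA stood 3 bases before the end in 11 of 13 H/ACA box members and in 0 of 34 C/D box members. The genes that are not members were much the same, with TGATGA in 51 of 65 Snord genes and the final ACA in 24 of 29 Snora genes. The letters in capitals are matches in these windows and were not tested as sites. For 6 members the genome annotation holds a copy, 95% or more identical along 90% or more of the gene (for Snora41, Snord118, Snora21, Snora30, Snora57 and Snord93), so reads of these could be divided between loci. The copy of Snora41 had 30 reads in round spermatids and that of Snora57 had 27 in eWAT.

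The level of the members differed widely between tables. Summed over the 47 members, liver held 448 to 1028 CPM (median 621) and eWAT 173 to 485 (median 216). Round spermatids held 32.5 to 41.8 (median 41.0), morulae 27.9 to 63.3 (median 38.8), gastrocnemius 10.7 to 67.6 (median 24.5) and sperm 2.06 to 25 (median 4.72). Mitochondrial genes took 43.5% to 84.3% of reads in sperm but 1.96% to 2.38% in round spermatids. With reads on genes not encoded in mitochondrial DNA as the denominator, sperm held 5.62 to 44.2 CPM (LFD 4 highest, then HFD 1 at 31.8) and morulae 36.2 to 85.3. Each liver and eWAT library lay above each library of the other tables, whereas round spermatids, morula and gastrocnemius overlapped. Without the eWAT library that stood apart, the eWAT range was 173 to 274. Liver, eWAT and gastrocnemius share kit, read length and RNA selection. Sperm, round spermatids and morula share kit and read length, but the study read sperm single-ended and round spermatids and morula paired-end. Its methods state removal of ribosomal RNA for round spermatids only. Rn7sk, another small RNA, had 4282 to 5129 CPM in round spermatids and 8.96 to 26.3 in morula. Protocol and tissue therefore cannot be told apart among sperm, round spermatids and morula either. Between these groups of tables, kit, read length, RNA selection and tissue change together and cannot be told apart. In bulk samples fewer cells of a type cannot be told apart from less RNA per cell.

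**Figure D1:**
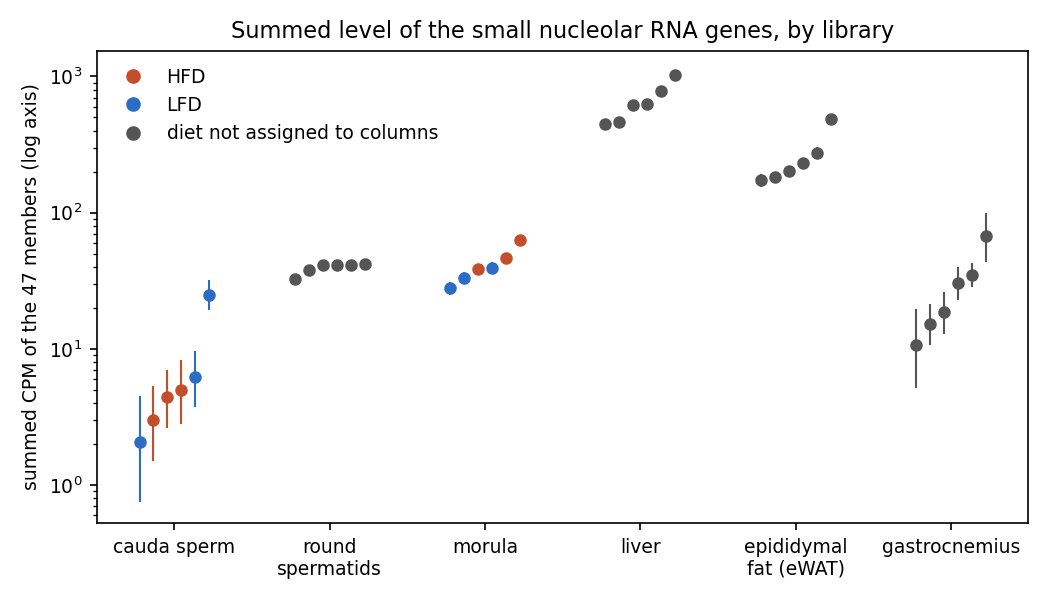
Summed CPM of the 47 members in each library on a log axis, by table, with exact 95% binomial intervals that cover counting error only. Points are ordered by value within a table. Liver sits at 448 to 1028, round spermatids at 32.5 to 41.8, and sperm at 2.06 to 25, the highest sperm point being LFD 4.

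In the 3′-end libraries the sum was carried by a few C/D box genes that lie between genes or in a noncoding host. Snord13 (U13, an independently transcribed RNA needed for acetylation of 18S ribosomal RNA; between genes) took 80.2% of the member reads in liver, 79.0% in eWAT and 53.8% in gastrocnemius. Its level was 329 to 884 CPM in liver (median 479, mean 531.7 ± 202, SD, n = 6), 132 to 423 in eWAT (median 152) and 6.76 to 37.9 in gastrocnemius (median 12.9). In eWAT the 423 belongs to the library that stood apart, and the other 5 lay at 132 to 244, with 74.2% of their member reads on Snord13. In the total RNA libraries Snord13 was low: 0.937 ± 0.222 CPM in round spermatids, 1 read in all 6 morula libraries together and 6 reads in sperm.

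Snord89 (chr1:39548745-39548854, minus strand, intronic in the noncoding Gm15832) followed the same order among the 3′-end tables. Its mean was 63.1 ± 21.4 CPM in liver, 39.2 ± 15.2 in eWAT, 10.3 ± 8.16 in gastrocnemius, 0.0857 in round spermatids and 0.174 in morula, and sperm had no read. The Gm15832 gene itself had 1.47 CPM in liver. Over the 6 table means, on log2(CPM + 1), Snord89 had the pattern most like Snord13 among the members (Pearson r = 0.988), ahead of Snord55 (0.881) and Snord118 (0.843). These 6 points share their kits in groups of 3, so the likeness is a description with no test.

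Snord118 (U8, an RNA with its own promoter that serves the processing of 28S and 5.8S ribosomal RNA; chr11:69073427-69073561, plus strand, 134 bases from Tmem107) was high in liver alone among the 3′-end tables. It stood at 30.6 to 64.3 CPM in liver (mean 43.4 ± 14.4), 0 to 6.55 in eWAT (0 to 4.01 without the library that stood apart) and 0 to 2.70 in gastrocnemius, with no overlap between liver and the other tables. Snord104 (a methylation guide for 28S ribosomal RNA; chr11:106500993-106501062, plus strand, between genes) had 6.64 ± 2.09 CPM in liver, 2.07 ± 0.706 in eWAT, 1.21 ± 0.144 in round spermatids and 1.73 ± 0.814 in morula. Its lowest liver library, at 4.31, lay above the highest of the other tables, 2.88 in morula. In gastrocnemius it had at most 1.09 CPM, but its count of 0 in the smallest library there allows up to 8.11 CPM by counting error. Per kb of gene length the order of mean levels in liver was the same, with 5112 CPM per kb for Snord13, 574 for Snord89, 321 for Snord118 and 94.9 for Snord104. The longest run of A within the gene was 4 bases in Snord89 and Snord118 and 2 in Snord104, while the longest in any member was 8, in Snord49b, which had 0.379 CPM in liver.

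Round spermatids and morulae were led by other members, within introns of protein-coding genes. Snord17 (a methylation guide for 28S ribosomal RNA; chr2:144265979-144266216, minus strand, in an intron of Snx5) took 54.3% of the member reads in round spermatids. It had 17.3 to 23.8 CPM there (mean 21.3 ± 2.34), 2.39 to 5.34 in morula (3.61 ± 1.08), at most 3.67 in sperm, 1.18 in liver and 0.798 in eWAT, and no read in gastrocnemius. The round spermatid range lay above that of each other table, while sperm and morula overlapped. Its host ran the other way, with Snx5 at 17.9 ± 0.982 CPM in round spermatids and 848 ± 73.5 in morula.

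Snora23 (an H/ACA box RNA that guides pseudouridylation of 28S ribosomal RNA; chr7:110046364-110046547, plus strand, in an intron of Ipo7) took 40.1% of the member reads in morula. It had 12.2 to 25.2 CPM there (16.6 ± 4.55) and 2.41 to 3.54 in round spermatids (3.10 ± 0.426), again without overlap. Here the host went the same way, with Ipo7 at 714 ± 42.3 CPM in morula and 45.8 ± 3.22 in round spermatids. Reads from a snoRNA and from an unspliced host transcript over the same intron cannot be told apart in these counts.

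The next members by mean CPM in round spermatids were Snord15a in Rps3 (2.12 ± 0.648), Snord104 (1.21 ± 0.144) and Snora78 in the noncoding host Snhg9 (1.20 ± 0.320). In morula Snora31 (chr14:75847905-75848034, plus strand, in an intron of Tpt1) had 2.69 ± 1.74 CPM and Snord72, in Rpl37, had 2.20 ± 1.56. Snora78 and Snhg9 had like levels in round spermatids, 1.20 and 1.26 CPM, but 0.146 and 8.24 CPM in liver. Snord15a had 2.12 CPM in round spermatids against 0.0428 in morula, while Rps3 had 34.3 and 982.

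**Figure D2:**
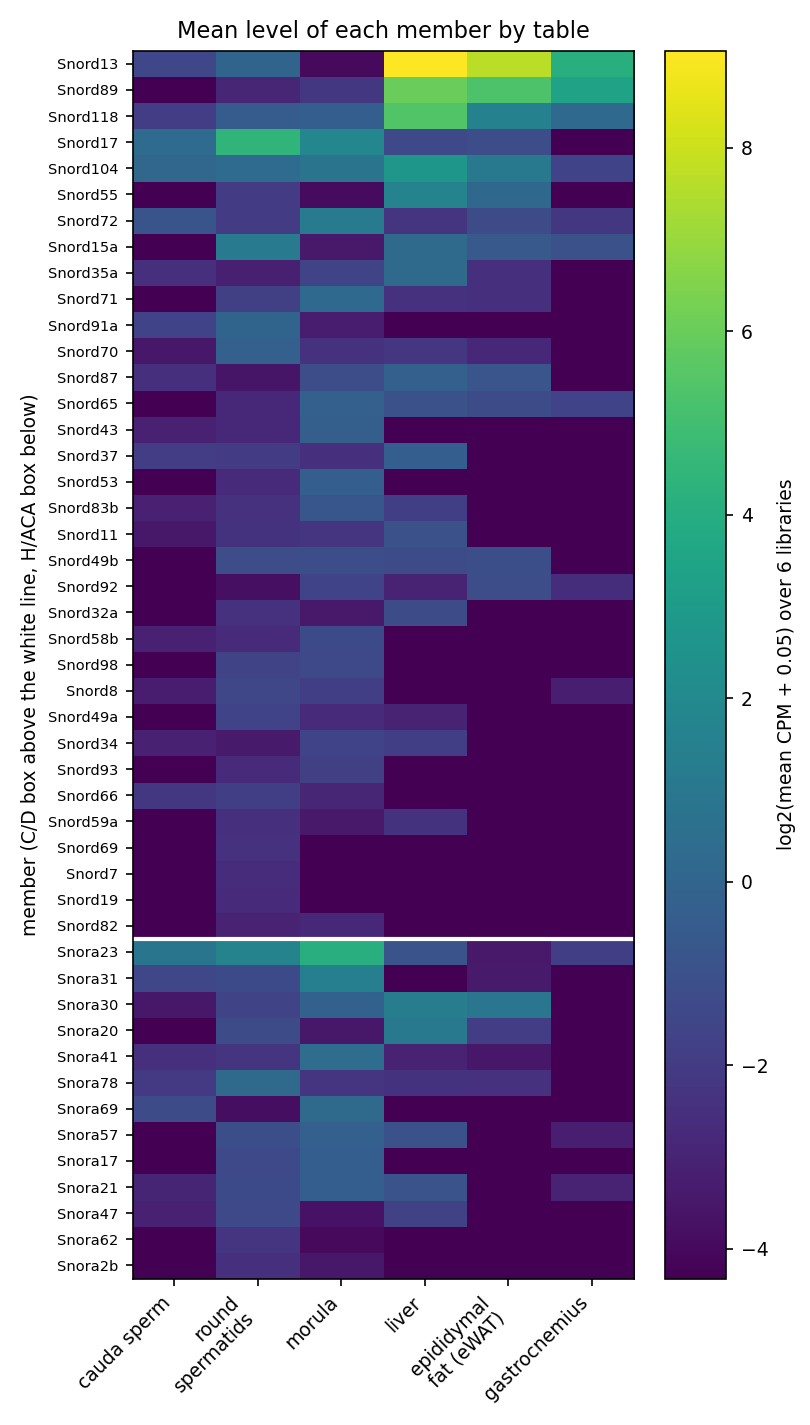
Mean level of each member (rows) in each table (columns), as log2 of the mean CPM over 6 libraries plus 0.05, with C/D box genes above the white line and H/ACA box genes below. Snord13, Snord89 and Snord118 are brightest in liver, Snord17 in round spermatids and Snora23 in morula.

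The division between the box classes differed accordingly. C/D box genes held 99.1% of member reads in liver, 99.3% in eWAT, 98.0% in gastrocnemius, 81.8% in round spermatids, 62.4% in sperm and 39.0% in morula. Without LFD 4 the share in sperm was 76.8% of 69 reads, and without the eWAT library that stood apart the share there was 98.9%. Without the top member of each table these shares were 95.2%, 96.5%, 95.7%, 60.1%, 80.6% and 65.1%. The low C/D share of morula thus rested on Snora23, since it was above 50% without that gene.

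Of the members, 15 had 10 or more reads in 1 table, 21 in 2, 6 in 3, 2 in 4 and 3 in 5. The number with 10 or more reads was 43 in round spermatids, 30 in morula, 11 in liver, 8 in eWAT, and 3 each in gastrocnemius and sperm in tables of unequal depth. No member reached 10 reads in all 6 tables. Snord104, Snord118 and Snord89 did so in 5, and Snora30 and Snord13 in 4. In eWAT 7 members did so without the library that stood apart, and in sperm the same 3 did so without LFD 4.

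Whether a Snord or Snora gene had any read went with its place relative to exons of other genes, in the exon coordinates that the deposited tables carry. Of the 69 genes that no other gene's exon overlapped (73 in the round spermatid table), 56 had a read in round spermatids, 48 in morula, 31 in liver, 25 in eWAT, 24 in sperm (15 without LFD 4) and 12 in gastrocnemius. Of the 58 genes covered at least 90% by an exon on the same strand (57 in the round spermatid and 59 in the morula table), 0 had a read in sperm, liver, eWAT or gastrocnemius, 2 had 4 reads together in round spermatids and 1 had 2 reads in morula. Every gene that reached 10 reads in a table was free of exon overlap in that table. Counting programs commonly leave a read over several genes unassigned, but the setting used for these tables is not given in the sources used here and its part was not tested.

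**Figure D3:**
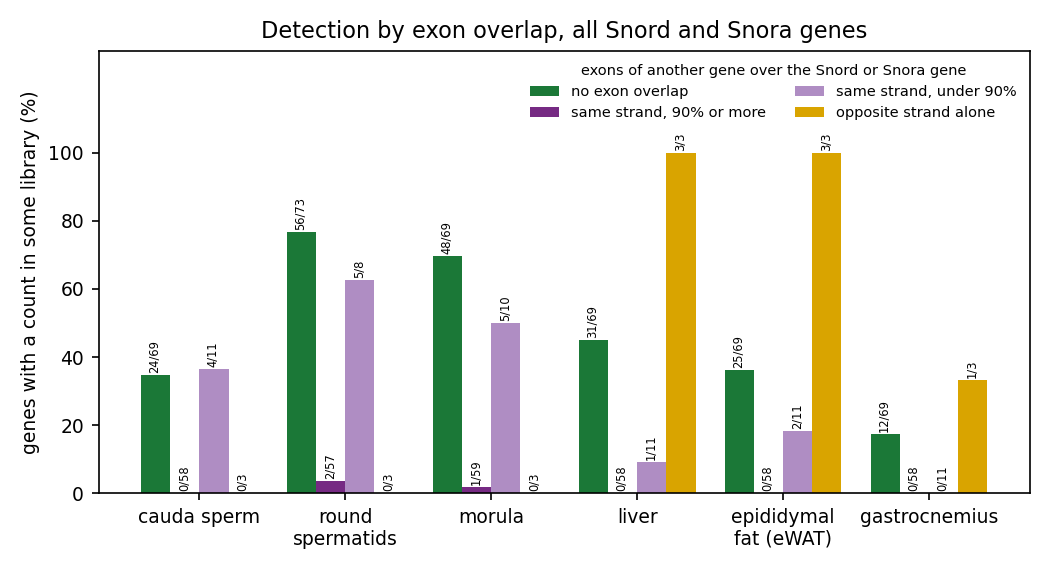
Share of the 141 Snord and Snora genes with at least 1 read in some library of a table, by table and by overlap with exons of other genes, with the number of genes above each bar. Genes covered at least 90% on the same strand stand at 0 of 58 in 4 tables, while 56 of 73 genes free of exons have a read in round spermatids.

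The round spermatid table gives the same contrast within single genes, because its exon coordinates differ from those of the other tables at 4 members. Snord69 and Snord19 (in Gnl3) are fully covered by an exon in the other tables and free in that one, and had 21 and 17 reads there and 0 in each other table. Snora2b (in Kansl2) and Snord66 (in Eif4g1) are covered in part elsewhere. Snora2b had 20 reads there and 3 in morula, and Snord66 had 34 there, 6 in morula and 3 in sperm. Tissue and table change together here and cannot be told apart. Conversely, 3 genes overlapped by an exon on the opposite strand alone (Snora73b, Snord42a and Snord4a) had no read in sperm, round spermatids or morula but 8, 8 and 3 reads in liver and 7, 1 and 1 in eWAT.

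Several well-known snoRNAs had no or few reads. All 4 genes of the Snord14 family (U14, needed for 18S processing) and Snord22 (U22, of the same process), Snord60, the 4 genes in Gas5, the 1 in Snhg1 and the 5 in Snhg12 had 0 reads in all 36 libraries, and each is covered at least 90% by an exon. Snora73a (U17a), covered in part by exons of Snhg3, also had 0, and Snora74a had 1 read, in sperm. The 17 Snord116 genes of the imprinted Prader-Willi locus are free of exons yet had 3 reads in all, in round spermatids, and up to 69 near-identical copies of each are annotated. In the introns of Rpl13a, which encode RNAs known from work on lipotoxic stress, Snord32a, Snord34 and Snord35a had 20, 8 and 10 reads in round spermatids, 3, 19 and 20 in morula and 5, 3 and 16 in liver, while Snord33, covered by exons, had 0.

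Of the 9 genes for core proteins of the snoRNA particles, 7 had their highest mean CPM in morula, Nop10 in eWAT and Rrp9 in round spermatids. Nop58, a core protein of C/D box particles, had a mean of 629 CPM in morula, 114 in eWAT, 81.6 in round spermatids, 49.6 in gastrocnemius, 48.2 in liver and 11.6 in sperm. Dkc1, the pseudouridine synthase of H/ACA box particles, had 480 in morula, 163 in eWAT, 63.2 in liver, 55.4 in gastrocnemius, 3.73 in sperm and 1.33 in round spermatids. Nop10, another H/ACA box particle protein, had 186 in eWAT, 170.5 in liver, 114 in gastrocnemius, 59.1 in round spermatids, 23.5 in morula and 16.1 in sperm. Other small RNA genes also had their own order: Rn7sk, an abundant nuclear RNA, had 4282 to 5129 CPM in round spermatids, 8.96 to 26.3 in morula and at most 1.32 in liver.

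Sperm held few member reads. The 3 HFD libraries had 15 reads (HFD 1), 18 (HFD 3) and 11 (HFD 4), and the LFD libraries 6 (LFD 1), 19 (LFD 2) and 64 (LFD 4), or 133 in all. A count of 0 allowed up to 0.738 to 1.17 CPM in these libraries, by counting error only. LFD 4 held the most reads and LFD 1 the fewest, so the diets overlapped.

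Snora23 led with 30 reads, of which 20 were in LFD 4, 6 in LFD 2 and 2 each in HFD 3 and HFD 4. Snord17 had 11 reads in HFD 1, 3 in LFD 2, 7 in LFD 4 and none elsewhere. Snord104 had 6 and 8 reads in HFD 3 and HFD 4, 4 in LFD 1 and 3 in LFD 4. No member was present in all 6 sperm libraries, and these 3 were the only ones to reach 10 reads. Snord72 and Snora69 came next, at 0.510 and 0.383 CPM, with 7 of 8 and 5 of 6 reads in LFD 4. Without LFD 4, Snord104 had 18 reads, Snord17 14 and Snora23 10.

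**Figure D4:**
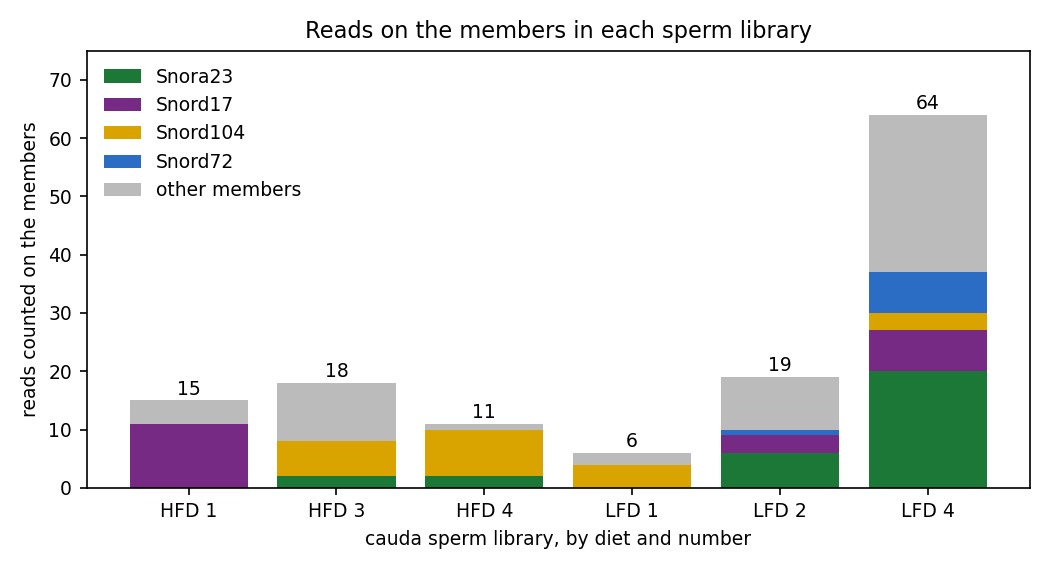
Reads counted on the members in each sperm library, by diet and library number, divided into Snora23, Snord17, Snord104, Snord72 and the other members. The totals are 15, 18 and 11 on HFD and 6, 19 and 64 on LFD, and Snora23 has 20 reads in LFD 4.

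Summed over the members, the mean was 4.14 ± 1.04 CPM on HFD and 11.1 ± 12.2 on LFD (SD, n = 3 each), a difference of -6.95 that the spread exceeds (exact two-sided permutation test, p = 0.5, the smallest possible being 0.1). Without LFD 4 the difference was -0.00060. With reads on genes not encoded in mitochondrial DNA as the denominator it was -0.385 (22.1 against 22.5, exact permutation p = 1), and with library sizes scaled by TMM it changed sign, to 2.53 (exact permutation p = 0.4). No direction is therefore given for sperm. LFD 4 also had 3980 CPM over 6 leukocyte markers against 291 to 2202 in the other libraries, and the part of this in the result was not tested.

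Gene by gene, no member had enough reads in sperm to be kept by the filter, so none of the 8643 genes tested by edgeR's quasi-likelihood test was a member, and 0 of these genes were called at an adjusted p of 0.05 (0%, and 13% at an unadjusted p under 0.05). limma-voom called 0 as well (0%) and DESeq2 295 of 6628 genes with an adjusted p (4.45%), none a member. Without the filter, 25 members with a read were tested and 0 were called (background 0.152% of 26903 genes). Of these 25, 1 had an unadjusted p under 0.05 (background 8.22%): Snord13, with 4, 1 and 1 reads on HFD and 0 in each LFD library (edgeR, adjusted p = 0.568).

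In morula more reads were available. The sum over members was 38.4, 63.3 and 46.7 CPM in HFD 5, 6 and 7 and 27.9, 39.3 and 33.1 CPM in LFD 1, 2 and 3. HFD 6 and HFD 7 lay above all LFD libraries, while HFD 5 lay just below LFD 2. The means were 49.5 ± 12.7 on HFD and 33.5 ± 5.70 on LFD, a difference of 16 that did not pass (exact two-sided permutation test, p = 0.2), and of 9.06 without HFD 6. Without Snora23 the difference was 11.4 and the diets did not overlap (exact permutation p = 0.1, the smallest that 20 arrangements allow). The 1367 other annotated snoRNA genes, none with a Snord or Snora symbol, summed to 54.3, 93.5 and 72.5 CPM on HFD and 41.9, 61.1 and 52.2 on LFD in the same libraries. Again HFD 6 was highest and LFD 1 lowest, whereas Rn7sk stood at 23.2, 8.96 and 19.5 against 26.3, 18 and 23.2.

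Snord104 had the smallest p among the members tested. It had 24, 27 and 35 reads (2.04, 2.33 and 2.88 CPM) in HFD 5, 6 and 7 and 15, 13 and 9 reads (1.24, 1.13 and 0.759 CPM) in LFD 1, 2 and 3, with no overlap. Its log2 fold change, HFD over LFD, was 1.18 (SE 0.56) and did not pass (edgeR's quasi-likelihood test, adjusted p = 0.769).

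Snora31 had 1.53, 5.95 and 3.29 CPM on HFD and 1.48, 2.27 and 1.60 on LFD, and Snord71, in Ap1g1, had 2.46, 0.689 and 1.56 on HFD and 0.494, 0.872 and 0.674 on LFD. In both the diets overlapped, through HFD 5 for Snora31 and HFD 6 for Snord71. Their log2 fold changes were 0.97 (edgeR, adjusted p = 0.804) and 1.19 (edgeR, adjusted p = 0.834). Without HFD 6 that of Snora31 was 0.40, and without HFD 5 that of Snord71 was 0.66.

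Snora23 had 14.3, 25.2 and 17.3 CPM on HFD and 12.2, 16.1 and 14.8 on LFD, and its log2 fold change of 0.37 did not pass either (edgeR, adjusted p = 0.842) and was 0.12 without HFD 6. Snora30, in Srcap, was the only tested member with a lower HFD value, with 0, 16 and 3 reads on HFD and 12, 20 and 8 on LFD (log2 fold change -1.10, SE 0.97, edgeR adjusted p = 0.896). It was -3.12 without HFD 6, -0.54 without HFD 5 and -0.65 without LFD 2.

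Of the 9 members that passed the filter in morula, 0 were called (background 0 of 13447 genes, 0%) and 0 had an unadjusted p under 0.05 (background 6.38%). limma-voom called 0 (background 0%), and DESeq2 gave 1 of the 9 an adjusted p and called 0 (background 0.26% of 6929 genes). The fitted value was above 0 for 8 of the 9 and below for Snora30, with a median log2 fold change of 0.62, against 0.01 over all genes tested. With each library left out in turn, this median ranged from 0.30 (without HFD 6) to 0.91 (without LFD 3).

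**Figure D5:**
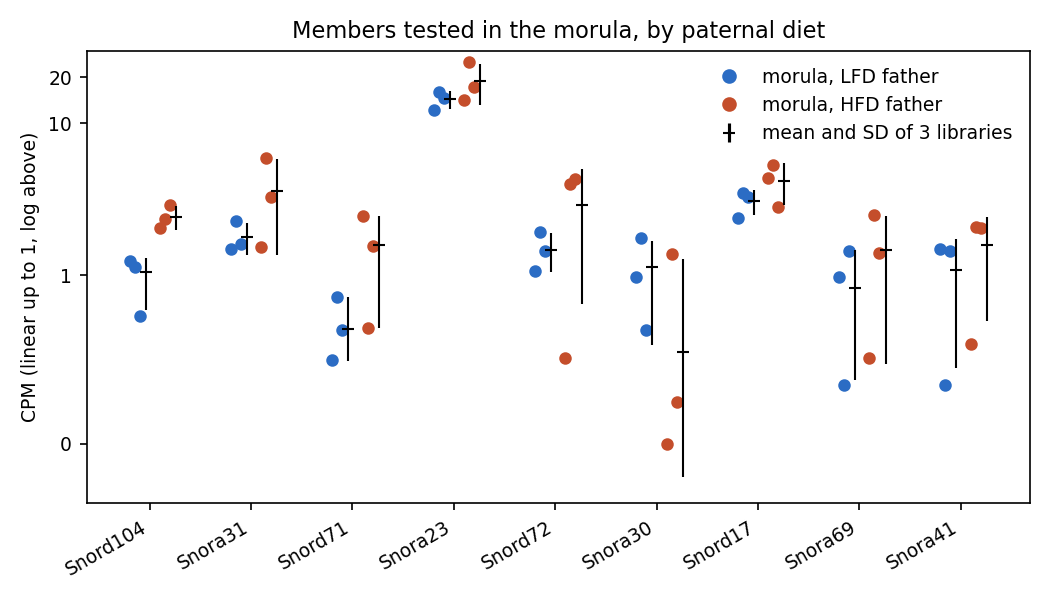
CPM of the 9 members tested in morula in each library, by paternal diet, with mean and SD of 3 libraries; the axis is linear up to 1 and logarithmic above. The diets do not overlap in Snord104 (2.04 to 2.88 on HFD, 0.759 to 1.24 on LFD) and overlap in the other 8.

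Among the 30 members with 10 or more reads in morula, 4 lay higher in every HFD than in every LFD library, against a background of 6.23% of all 20423 genes with such a sum, and 0 lay lower in every HFD library (background 4.83%). The 4 were Snord104, Snord35a (5, 4 and 7 reads against 0, 1 and 3), Snord83b (11, 11 and 9 against 4, 0 and 4) and Snord8 (7, 3 and 6 against 0, 0 and 0). Snord35a, Snord83b and Snord8 reached 10 reads in morula only through their HFD libraries, so their place in this count carries no support for a difference. In 24 of the 30 (80%) the mean CPM was higher on HFD, against 55.4% of all genes with such a sum. The members of a library share its depth and RNA, so neither count was tested. Without the filter, 44 members with a read were tested, 0 were called (background 0.212% of 29785 genes) and 1 had an unadjusted p under 0.05 (background 6.34%). This was Snord8, a gene in an intron of Chd8 (edgeR, adjusted p = 0.533).

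The protein genes of snoRNA synthesis were read from the same fits. Of 31 genes for core particle proteins, assembly, and trimming or decay, all 31 were tested in morula and 0 were called (background 0%), with 4 at an unadjusted p under 0.05 (background 6.38%). Their median log2 fold change was -0.01 (range -0.39 to 0.43), and the 4 were Nop56 (0.26), a core protein of C/D box particles, Gar1 (-0.28), one of H/ACA box particles, Coil (0.43), the coilin of Cajal bodies, and the RNA exosome gene Exosc3 (-0.39). In sperm 21 of the 31 were tested, 0 were called (background 0%) and 1, the poly(A) polymerase gene Tent4b, had an unadjusted p under 0.05 (background 13%).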

How the data were processed

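RNA-seq was analysed in 36 libraries, 6 in each of 6 tables. The authors deposited raw read counts per gene, whole numbers with no normalization, which they made by BBDuk trimming, STAR mapping to GRCm38 and featureCounts. The versions, strand setting and treatment of reads that overlap several genes are not given in the sources used here. CPM is relative to the library total. Members and gene lists were chosen with earlier results of these data known. Named members are the 5 with the highest mean CPM of a table, those with the smallest p in the diet comparisons, those in the most tables, and those with a textbook role or locus. Snord8, Snord35a and Snord83b in morula, Snord15a in gastrocnemius and the genes that differ in exon overlap were named after their values were seen.

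Sperm and morula were fitted separately with edgeR 4.0.16 in R 4.3.3 (TMM scaling, genes kept by filterByExpr at a minimum of 10 reads, two-sided quasi-likelihood test of HFD over LFD, Benjamini-Hochberg adjustment over all genes tested, threshold 0.05). The study names NOISeq for its own test. DESeq2 1.42.0 and limma-voom (limma 3.58.1) were alternatives, as were other scalings, no filter, and leaving out each library. Library totals without a filter were added after seeing the data. The fit was also run on counts simulated at a single fixed spread, for genes kept by the filter. No sperm member was kept, so that run does not show what could be found for members with few reads. Summed CPM was compared by an exact permutation test over 20 arrangements. Precision follows the counts: intervals are exact 95% binomial intervals, and a count of 0 allows 3. Diet was read from the letters in the column names, whose numbers are not those of the sample titles. For 3 morula samples a description names the other diet than the title and treatment, which were followed. The other 24 columns were used by tissue alone, and 0 columns mapped to nothing. Positions and exons come from the tables and the GENCODE annotation of GRCm38, and copies from BLAST 2.17.0. The sequence of Snord13 is not reported here. Tables were read with pandas 2.3.3 in Python 3.11.15.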

Additional observations from a re-analysis of the deposited data

Results flagged for a closer look

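Among 24 groups of 6 libraries (sums and leading members in the 4 tables without a diet in their column names), 2 had a library farther from the others than the 95% critical value of Dixon's test allows, and chance alone gives about 1 in 20. The first was the summed level of the members in eWAT, at 484.9 CPM in the library of 3512177 reads against 173 to 274 in the other 5. The same library had 360 CPM over 4 Sertoli markers (median 45.4) and 120 CPM over 7 morula markers (median 20.6). In eWAT, however, Amh of the Sertoli list and Pou5f1 of the morula list had no read. The Leydig markers summed to 7.40 to 11.7 CPM in eWAT, highest in another library. The part of these markers in the summed level was not tested. The second was Snord15a in gastrocnemius, at 2.70 CPM, which is 1 read in the smallest library (369772 reads), with 0 in the other 5. With 0 in 5 libraries, a single read in the sixth always passes this limit, so nothing is read from it.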

How the results depend on the processing

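With library sizes scaled by TMM as the denominator, the difference in summed CPM in sperm turned from -6.95 to 2.53. The number of members in a table moved with the limit on reads: at 5 reads it was 8 in sperm, 22 in liver and 16 in eWAT, and at 20 reads it was 7 in liver and 5 in eWAT. The C/D box share without the top member was 60.1% in round spermatids, 65.1% in morula, 95.2% in liver, 96.5% in eWAT and 95.7% in gastrocnemius, since that member is left out by construction. Leaving out 1 library at a time, the summed difference ran from -11.5 to -0.00060 CPM in sperm and from 9.06 to 21.5 CPM in morula, and the median log2 fold change of the tested members in morula from 0.30 to 0.91. In sperm no member was left to test under any alternative that kept the filter, and without the filter 0 of 25 members were called. In morula no member was called under any alternative. The 9 tested morula members kept their direction in all of theirs. Scaling by library totals moved the median log2 fold change of all sperm genes from -0.07 to -1.82. A fit with a replicate block, on the 4 sperm libraries whose numbers (1 and 4) both diets share, tested no member and called 2 of 9054 genes. The numbers give no stated pairing. For morula, no paired analysis was possible because its columns share no number between the diets. Without LFD 4 the C/D box share in sperm was 76.8% with 3 members at 10 reads, and without the eWAT library of 3512177 reads it was 98.9% there with 7 such members, both chosen after seeing the data. By counting error a count of 0 allows up to 8.11 CPM in the smallest gastrocnemius library and 1.17 in the smallest sperm library.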
